A study of Drosophila melanogaster with 42 samples.

Results

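Accessibility was followed at 18 annotated anterior enhancers of Drosophila melanogaster, stretches of DNA annotated as driving expression in the anterior part of the early embryo. They are the tested regions whose annotated pattern in the authors' deposited table for gd7 is anterior, 18 of 20935 regions in all. The rule also allowed posterior patterns, and 0 of the 95 regions with an annotated pattern carried one. The study used ATAC-seq, in which the transposase Tn5 inserts sequencing adapters into open chromatin, on whole embryos sorted by hand. Wild-type embryos (Oregon-R, here OreR) were compared with embryos labelled zld-, gd7 and cic6. Time was counted from egg laying in 4 windows of 30 min, the first from 1 to 1.5 h, the second to 2 h, the third to 2.5 h and the fourth to 3 h, with cic6 present only in the third and the fourth. Each of the 14 groups held 3 libraries, each from 400 embryos at the start of the series, from 100 in the window after it and from 40 in the remaining pair of windows. How the zld- embryos arose is not in the labels, but file names speak of RNAi and depletion, and residual Zelda is possible. Accessibility does not measure the products of zld, gd or cic, so the genotypes rest on the labels.

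The anterior pattern of the fly embryo starts with the Bicoid protein, whose maternal mRNA is anchored at the anterior pole. Bicoid and maternal factors of the termini switch on the gap genes, and these position the narrower stripes of later genes. Zelda, the product of zld, is a pioneer factor that binds many early enhancers before they become active. The gd7 mutation removes the maternal serine protease Gastrulation defective, so that the gradient of the Dorsal protein does not form and the embryo becomes dorsal throughout. Capicua, the product of cic, represses the terminal genes tailless and huckebein in the middle of the embryo and is inactivated at the poles by Torso signalling.

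The 18 enhancers belong to 9 genes and are therefore not independent of each other. Positions are given in build dm6, each region is 2114 bp long, and 8 of the 18 overlap the span of a protein-coding gene, in each case the gene they are named after. The midpoint of the most distant one, ems_(+22), lies 22237 bp from its gene. Among the gap genes, hb_(+0)_narrow (3R:8693488-8695601, inside hb) and hb_(-2)_broad (3R:8698468-8700581, outside it) are named for hunchback, a zinc-finger repressor and activator of the anterior body. The enhancers kni_(+0) (3L:20694610-20696723, overlapping the gene) and kni_-5_construct (3L:20699027-20701140, outside it) are named for knirps, a gap repressor that is also expressed in an anteroventral patch of the head. The enhancers gt_(-2)_narrow (X:2428941-2431054, overlapping the gene) and gt_(-10) (X:2437560-2439673, outside it) are named for the bZIP repressor giant.

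The terminal genes have 4 enhancers. Those of tailless, a nuclear receptor, are tll_(+2) (3R:30848778-30850891, outside the gene) and tll_(+1) (3R:30851030-30853143, overlapping it), and only 138 bp separate them. Those of huckebein, a zinc-finger repressor, are hkb_(+6) (3R:4340322-4342435, outside the gene) and hkb_(-2) (3R:4346601-4348714, overlapping it). The head gap genes ocelliless (oc, also orthodenticle) and empty spiracles (ems) encode homeodomain proteins. Inside oc lie oc_otd_eye_enhancer (X:8635740-8637853) and oc_intronic_distal (X:8642373-8644486), while oc_RVH (X:8653368-8655481) lies outside it. All 3 ems enhancers lie outside the gene: ems_(+22) (3R:13878560-13880673), ems_elementIV_70_Anterior (3R:13892412-13894525) and ems_(-9) (3R:13909669-13911782). The last pair are slp2_(+3) (2L:3832991-3835104, outside the gene), named for the forkhead factor sloppy paired 2, and cnc_+5_construct_67.5_Anterior (3R:23194855-23196968), inside cap-n-collar, which encodes a bZIP factor of the head segments. The names are those of the gd7 table. In the zld- table the same coordinates carry another name at 17 of the 18 regions, oc_RVH being the exception. At hkb_(-2) that name is hkb_ventral_element_plus_NR, which speaks of a ventral element. The anterior pattern was taken from the label, and whether each region acts in the anterior was not tested.

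In wild-type embryos most of these enhancers were already called as peaks in the first window, and nearly all from 1.5 h on. The 3 OreR libraries of the first window listed a peak at 9, 15 and 17 of the 18 enhancers, which gives 13.7 ± 4.16 (SD, n = 3). The numbers were 17.3 ± 0.577 in the second window, 18 in each library in the third window and 17.7 ± 0.577 in the fourth window (SD, n = 3 each). The OreR lists held 38663 to 56863 peaks in all. The tested regions were placed at OreR peaks, so a listed peak in OreR is favoured by that choice. The share of all tested regions with a listed peak was not computed, so these numbers are no trait of anterior enhancers. Depth per library is unknown, and a peak that is not listed does not show closed chromatin.

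The OreR enhancers differed in how strong their peak was within its own list, judged by the authors' fold enrichment over background. At tll_(+1) the peak had a median rank at the 91.8th percentile of the list over 12 libraries, at hkb_(-2) at the 91.0th, at oc_RVH at the 89.4th over 11 libraries and at gt_(-2)_narrow at the 89.0th over 12. At the low end, hkb_(+6) ranked at the 24.3rd percentile over 12 libraries, kni_-5_construct at the 35.1st over 9 and oc_otd_eye_enhancer at the 47.3rd over 8. Of the 18 enhancers, kni_-5_construct alone had no peak in any of the 3 OreR libraries of the first window. Its authors' fold enrichment in the 9 later OreR libraries was 1.78, 1.57 and 1.66 in the second window, 2.07, 2.23 and 2.16 in the third window, and 1.75, 1.77 and 2.50 in the fourth window. For oc_RVH no peak was listed in 1 library of the first window, and the other 11 gave 2.44 and 2.66, then 3.40, 3.21 and 3.62, then 3.43, 4.12 and 3.33, then 3.43, 3.62 and 4.27.

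Peak summits did not always lie in the middle of the region. In OreR the strongest summit inside the region lay between -240 and 234 bp from the midpoint in the libraries that listed one (negative to the left) at slp2_(+3), kni_(+0), kni_-5_construct, ems_(+22), cnc_+5_construct_67.5_Anterior, tll_(+2) and tll_(+1). At gt_(-2)_narrow its median position was -980 bp from the midpoint (range -1022 to 894), at hkb_(-2) -778.5 bp (range -877 to 781) and at ems_(-9) 837 bp (range -618 to 913). Those 3 regions and oc_RVH held a median of 2 summits per OreR library, so their region-wide values can cover more than 1 open site.

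**Figure D1:**
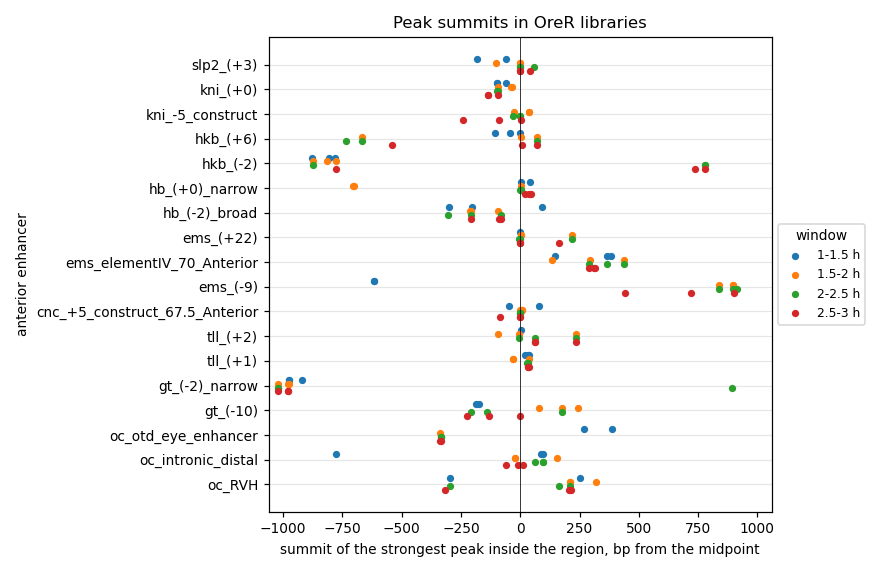
Position of the strongest peak summit inside each anterior enhancer region in the OreR libraries, in bp from the region midpoint (negative to the left on the chromosome), one point per library with a listed summit, coloured by window. Most regions have their summits within 500 bp of the midpoint, while those of gt_(-2)_narrow, hkb_(-2) and ems_(-9) lie towards the ends.

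The authors' deposited tables give no values per library, only, for each window, the log2 fold change between mutant and OreR (positive where the mutant is higher), its standard error (SE) and a p-value adjusted over all tested regions. A region is called lower or higher below at an adjusted p under 0.05. The mean normalized count in the authors' deposited table, a level averaged over all libraries of the fit, was highest at hkb_(-2), with 3631 in the zld- table, 5061 in the gd7 table and 8648 in the cic6 table. The next highest was tll_(+1), with 2833, 3938 and 7253, and then hb_(+0)_narrow, with 2358, 3167 and 5642. The members' median percentile of this count among all regions was 83.4 in the zld- table, 86.8 in the gd7 table and 91.8 in the cic6 table. As embryos were processed whole, a change in a few nuclei and a smaller change in all of them cannot be told apart.

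In zld- embryos accessibility was lower than in OreR at 4 to 11 of the 18 anterior enhancers, depending on the window, and higher at none by the authors' call. Of the 18, 4 were called lower in the first window of the authors' deposited table, against 15.6% of all tested regions. In the second window the authors' deposited table called 9 lower (7.49% of all regions), in the third window 11 (13.4%) and in the fourth window 10 (17.1%). None was called higher in any window, against 10.4%, 4.66%, 7.82% and 14% of all regions in the authors' deposited table. The members' median log2 fold change in the authors' deposited table was -0.08, -0.51, -0.55 and -0.49 in the 4 successive windows, and that of all regions -0.01, 0.04, 0.02 and -0.01. Over the windows 13 members were called lower at least once (27.5% of all regions) and 8 in each of the last 3 windows (6.37%). In the fifth of regions with the highest mean normalized count, where 11 of the members lie, 29.9%, 12.0%, 17.8% and 21.3% of regions were called lower in the authors' deposited table.

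The first zld- window rests on uneven libraries. Their peak lists held 21324, 41668 and 6831 peaks, and a peak was listed at 8, 16 and 3 of the 18 enhancers (9 ± 6.56, SD, n = 3). Without the shortest list the mean number was 12. Its part in the fitted values of that window was not tested, as the authors' deposited table holds no values per library.

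**Figure D2:**
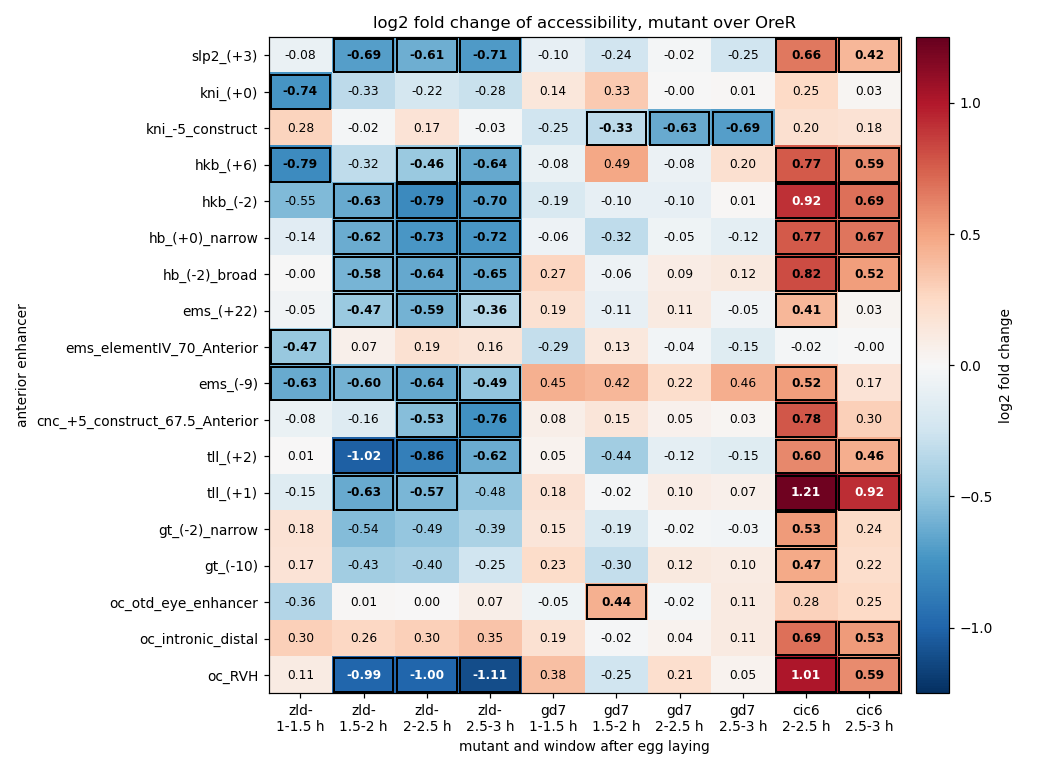
Log2 fold change of accessibility (mutant over OreR) at the 18 anterior enhancers from the authors' deposited tables, with enhancers in rows and the mutant and window in columns. Outlined bold cells have an adjusted p under 0.05. The zld- columns hold 4, 9, 11 and 10 lower calls, the gd7 columns 3 lower calls and 1 higher, and the cic6 columns 14 and 9 higher calls.

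Among the zld- values of the gap genes, both hunchback enhancers were lower from 1.5 h on. At hb_(+0)_narrow the log2 fold changes in the authors' deposited table were -0.14, -0.62 (SE 0.21, adjusted p 0.0241), -0.73 (SE 0.20, adjusted p 0.0033) and -0.72 (SE 0.20, adjusted p 0.00228). At hb_(-2)_broad they were -0.00, -0.58, -0.64 and -0.65, and the last 3 were called lower in the authors' deposited table. The knirps pair had 1 call between them. The enhancer kni_(+0) was called lower only in the first window in the authors' deposited table (-0.74, SE 0.21, adjusted p 0.00255), and its later values were -0.33, -0.22 and -0.28, without a call. With the trend on mean normalized count removed, by subtracting a running median over regions of like count, the first value of kni_(+0) was -0.44 (adjusted p 0.122, from the authors' deposited table), and the call was lost. For kni_-5_construct the authors' deposited table gave 0.28, -0.02, 0.17 and -0.03, none of them called. Neither giant enhancer was called in zld-: gt_(-2)_narrow stood at 0.18, -0.54, -0.49 and -0.39 and gt_(-10) at 0.17, -0.43, -0.40 and -0.25 in the authors' deposited table. The gt values nearest to a call were those of gt_(-10), with adjusted p of 0.0555 in the second window and 0.0543 in the third window in the authors' deposited table. With the trend removed these were called lower (adjusted p 0.0081 and 0.0194), as was gt_(-2)_narrow in the second window (adjusted p 0.0171), from the authors' deposited table.

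All 4 terminal enhancers were called lower in zld- in 2 or 3 windows. The largest of these changes was at tll_(+2), with 0.01, -1.02 (SE 0.18, adjusted p 9.83e-07), -0.86 and -0.62 in the authors' deposited table, a 2.02-fold lower accessibility in the second window. The neighbouring tll_(+1) had -0.15, -0.63, -0.57 and -0.48, of which the middle pair were called lower in the authors' deposited table, the third window no longer so with the trend removed (adjusted p 0.0544). At hkb_(-2) the values were -0.55, -0.63 (adjusted p 0.0499), -0.79 and -0.70, with the last 3 called lower in the authors' deposited table, the fourth window no longer so with the trend removed (adjusted p 0.0793). At hkb_(+6) they were -0.79 (SE 0.17, adjusted p 4.13e-05), -0.32, -0.46 and -0.64, with each but the second called lower in the authors' deposited table.

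Enhancers of one head gap gene differed in their calls in zld-. At oc_RVH the authors' deposited table gave 0.11 (SE 0.22) in the first window and then -0.993, -0.996 and -1.11 (SE 0.22 each, adjusted p 0.000118, 5.66e-05 and 3.31e-06). The last value is 2.16-fold lower accessibility and the largest fall among the 18 enhancers in zld- in the authors' deposited table. In the same gene oc_intronic_distal stood at 0.30, 0.26, 0.30 and 0.35, with adjusted p from 0.0522 to 0.297 in the authors' deposited table, and oc_otd_eye_enhancer at -0.36, 0.01, 0.00 and 0.07, likewise without a call. Among the ems enhancers, ems_(-9) was the only one of the 18 called lower in all 4 windows, at -0.63, -0.60, -0.64 and -0.49 in the authors' deposited table, as were 4.31% of all regions. The enhancer ems_(+22) had -0.05, -0.47, -0.59 and -0.36, the last 3 called lower in the authors' deposited table. For ems_elementIV_70_Anterior only the first value, -0.47 (SE 0.11, adjusted p 0.000177), was called lower in the authors' deposited table, and 0.07, 0.19 and 0.16 followed.

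The enhancers slp2_(+3) and cnc_+5_construct_67.5_Anterior were not called in the first zld- window and were called lower than in OreR later. At slp2_(+3) the authors' deposited table gave -0.08, then -0.69, -0.61 and -0.71, all 3 called lower (adjusted p 2.47e-05, 0.000121 and 3.27e-06). At cnc_+5_construct_67.5_Anterior the authors' deposited table gave -0.08 and -0.16 without a call, then -0.53 (SE 0.15, adjusted p 0.00304) and -0.76 (SE 0.15, adjusted p 3.25e-06).

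Whether the zld- effect differed between windows was tested directly, by the ratio of the difference of log2 fold changes from the authors' deposited table to its SE (Wald test, Benjamini-Hochberg over all regions). From the first to the second window, the log2 fold change became lower at 3 enhancers (1.67% of all regions). They were tll_(+2) by -1.02 (SE 0.26, adjusted p 0.00377), oc_RVH by -1.10 (SE 0.31, adjusted p 0.0103) and slp2_(+3) by -0.61 (SE 0.20, adjusted p 0.0415) on the log2 scale of the authors' deposited table. One moved up, ems_elementIV_70_Anterior by 0.54 (SE 0.15, adjusted p 0.00706; 5.91% of all regions), from a lower call to none in the authors' deposited table. From the first to the fourth window the same test called 3 lower (4.76% of all regions), which were oc_RVH, slp2_(+3) and cnc_+5_construct_67.5_Anterior, and 1 higher (5.44%), again ems_elementIV_70_Anterior. No member differed between neighbouring later windows by this test. The first window, which holds the uneven zld- libraries, enters each of these called differences.

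In gd7 embryos few anterior enhancers differed from OreR. In the authors' deposited table for gd7 none of the 18 was called in the first window, where 4.01% of all regions were called lower and 4.47% higher. In the second window the authors' deposited table called 1 lower (7.47% of all regions) and 1 higher (7.86%). In the third window it called 1 lower (3.45%) and none higher (2.09%), and in the fourth window 1 lower (8.19%) and none higher (3.81%), in the authors' deposited table. These member counts are near the share of all regions. The members' median log2 fold change in the authors' deposited table was 0.11, -0.08, -0.01 and 0.02 in the 4 windows. In the second window the fifth of regions with the highest mean count had a median of 0.34 in the authors' deposited table, and with the trend on this count removed the members' median was -0.37, with 13 of 18 below 0.

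Each lower call in gd7 was at kni_-5_construct. The authors' deposited table gave it -0.25 (SE 0.13, adjusted p 0.254), -0.33 (SE 0.12, adjusted p 0.0467), -0.63 (SE 0.12, adjusted p 1.51e-05) and -0.69 (SE 0.12, adjusted p 6.67e-07) in order of age, the last of which is 1.61-fold lower accessibility. The call of the second window was lost with the trend removed (adjusted p 0.0919, from the authors' deposited table). The other knirps enhancer, kni_(+0), stood at 0.14, 0.33, -0.00 and 0.01 in the authors' deposited table. The higher call was at oc_otd_eye_enhancer in the second window, at 0.44 (SE 0.17, adjusted p 0.048) in the authors' deposited table, and its other values were -0.05, -0.02 and 0.11. Of the members not called in gd7, ems_(-9) had the highest mean over the windows, with 0.45, 0.42, 0.22 and 0.46 and adjusted p from 0.152 to 0.987 in the authors' deposited table.

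For the members not called in gd7 the precision limits what can be said. Their 95% intervals (normal, from the SE of the authors' deposited table) lay within ±1 on the log2 scale at 17 of 18, 16 of 16, 17 of 17 and 17 of 17 enhancers in the 4 windows. The median SE was 0.22 in each window of the authors' deposited table. The exception was oc_RVH in the first window, whose interval in the authors' deposited table reached 1.01. In the successive windows the outermost limits of these intervals were -0.64 and 1.01, -0.87 and 0.87, -0.56 and 0.84, and -0.63 and 0.88. The intervals of some members thus reached the size of changes called in zld-. No member's gd7 effect differed between windows by the Wald test.

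**Figure D3:**
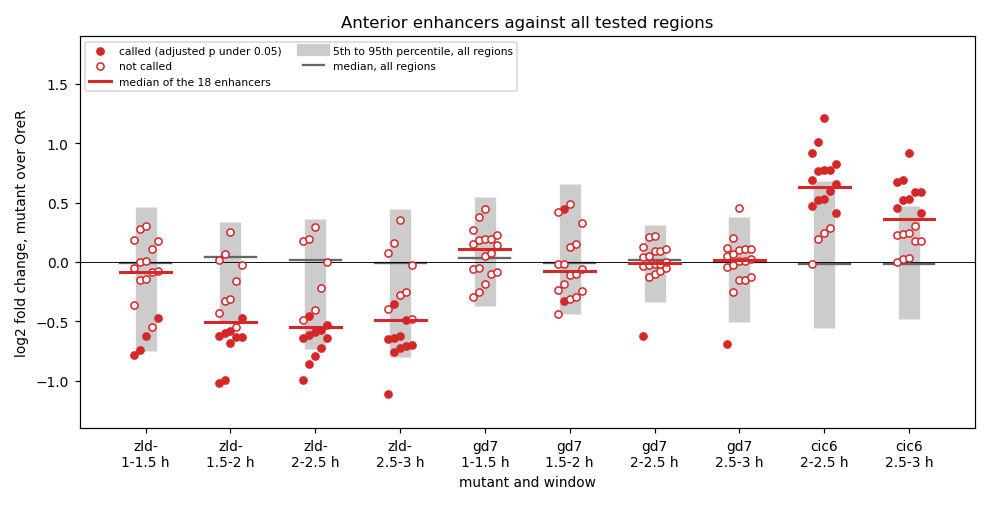
Log2 fold change (mutant over OreR, from the authors' deposited tables) of the 18 anterior enhancers in each mutant and window, filled where the adjusted p is under 0.05. Red bars are the median of the 18, grey bars the range from the 5th to the 95th percentile of all tested regions with their median. The red median lies at -0.51, -0.55 and -0.49 in the last 3 zld- windows, between -0.08 and 0.11 in gd7, and at 0.63 and 0.36 in cic6.

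The zld- and gd7 effects were set against each other in the same window. Both were measured against the same OreR libraries, which makes the SE of the difference too large and the test err towards fewer calls. The difference of the log2 fold changes in the authors' deposited tables (gd7 minus zld-) was positive and called at ems_(-9) in every window, at 1.07 (SE 0.28, adjusted p 0.0027), 1.01 (SE 0.27, adjusted p 0.00504), 0.86 (SE 0.27, adjusted p 0.0209) and 0.94 (SE 0.27, adjusted p 0.00589). At oc_RVH it was called in the third window (1.20) and in the fourth window (1.16), at hkb_(+6) in the second window (0.80) and the fourth (0.84), and once each at kni_(+0) in the first window (0.88), ems_(+22) in the third window (0.70) and cnc_+5_construct_67.5_Anterior in the fourth window (0.78), all from the authors' deposited tables. That makes 2, 2, 3 and 4 members with a higher value in gd7 in the successive windows, against 7.59%, 5.23%, 6.51% and 7.95% of all regions. The opposite difference was called at kni_-5_construct alone, at -0.53 in the first window (3.74% of all regions), -0.80 in the third window (2.13%) and -0.66 in the fourth window (5.26%), from the authors' deposited tables. In the second window no member was called in that direction.

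In cic6 embryos most anterior enhancers were called higher in the third window, and so were most of the regions with a high mean count. In the third window the authors' deposited table called 14 of the 18 higher (26.2% of all regions) and none lower (22.8%). In the fourth window the authors' deposited table called 9 higher (14%) and none lower (13.7%). All 9 were also called higher in the earlier window, and 11.8% of all regions were called higher in both. The members' median log2 fold change was 0.63 and 0.36 in the authors' deposited table, and that of all regions -0.02 in both windows. Of the fifth of regions with the highest mean normalized count, to which 15 of the 18 belong, 68.8% and 24.7% were called higher in the authors' deposited table, with medians of 0.41 and 0.16.

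Enhancers of tailless and huckebein were called higher in both windows, and tll_(+1) had the highest values of the 18. At tll_(+1) the authors' deposited table gave 1.21 (SE 0.16, adjusted p 3.57e-12) and 0.92 (SE 0.16, adjusted p 3.81e-07), which is 2.32-fold and 1.89-fold higher accessibility. The adjoining tll_(+2) stood at 0.60 and 0.46, both called higher in the authors' deposited table. At hkb_(-2) the authors' deposited table gave 0.92 (SE 0.14, adjusted p 3.88e-10) and 0.69 (SE 0.14, adjusted p 6.89e-06), and at hkb_(+6) 0.77 (SE 0.10, adjusted p 2.69e-12) and 0.59 (SE 0.10, adjusted p 1.9e-07). With the trend on mean count removed, tll_(+1) and hkb_(+6) kept both calls, hkb_(-2) only that of the fourth window and tll_(+2) neither. Whether a loss of repression by Capicua lies behind these values was not tested. Enhancers of other genes reached similar values as deposited. At oc_RVH the authors' deposited table gave 1.01 (SE 0.18, adjusted p 1.94e-07) and 0.59, at hb_(+0)_narrow 0.77 and 0.67, and at hb_(-2)_broad 0.82 and 0.52, all called higher. Likewise oc_intronic_distal, at 0.69 and 0.53, and slp2_(+3), at 0.66 and 0.42, were called higher in both windows of the authors' deposited table.

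A further 5 enhancers were called higher in the third window and not in the fourth. In the authors' deposited table these were cnc_+5_construct_67.5_Anterior (0.78, then 0.30 with adjusted p 0.0533), gt_(-2)_narrow (0.53, then 0.24), ems_(-9) (0.52, then 0.17), gt_(-10) (0.47, then 0.22) and ems_(+22) (0.41, then 0.03). The change between the windows was not called at any member by the Wald test. The remaining 4 were called in neither window of the authors' deposited table: oc_otd_eye_enhancer at 0.28 and 0.25, kni_(+0) at 0.25 and 0.03, kni_-5_construct at 0.20 and 0.18, and ems_elementIV_70_Anterior at -0.02 and -0.00.

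The cic6 values of all regions increased with the mean normalized count, and the anterior enhancers are regions of high count. When the running median of 1001 regions of like count was subtracted from the log2 fold changes of the authors' deposited table, 5 members were called higher in the third window (13.7% of all regions) and none lower (11.5%). In the fourth window 4 were called higher (11.8%) and none lower (9.43%), from the values of the authors' deposited table. The called members were tll_(+1) (0.58 and 0.64 above regions of like count), hkb_(+6) (0.37 and 0.44) and oc_intronic_distal (0.42 and 0.43) in both windows, cnc_+5_construct_67.5_Anterior (0.47) and ems_(-9) (0.29) in the third, and hkb_(-2) (0.41) in the fourth, all derived from the authors' deposited table. Both hb enhancers, both gt enhancers, slp2_(+3), tll_(+2), oc_RVH and ems_(+22) were called higher as deposited in at least 1 window and in neither with the trend removed. The members' median above the trend was 0.22 and 0.23, from the authors' deposited table. Whether the trend belongs to the embryos or to the libraries was not tested.

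**Figure D4:**
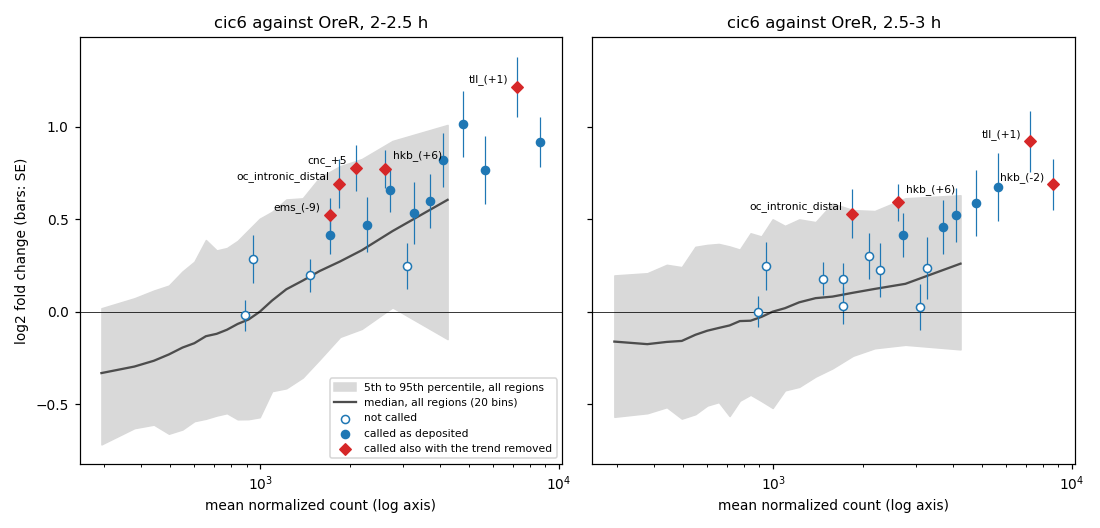
Log2 fold change in cic6 against OreR (bars, SE) of the 18 anterior enhancers against their mean normalized count on a log axis, both from the authors' deposited table, in the third window (left) and the fourth (right). The grey band and line give the 5th to 95th percentile and median of all regions in 20 bins of equal size by count. Named diamonds are the 5 and 4 members still called higher once the running median of regions of like count is removed.

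The peak lists of the single libraries give a second view of the same regions. From 1.5 h on, a peak was listed in every library of the genotype at 17 of the 18 enhancers in OreR, 16 in zld-, 15 in gd7 and, from 2 h, 18 in cic6. In gd7 the libraries listed a peak at 14.7 ± 3.21, 16.7 ± 0.577, 16.3 ± 0.577 and 16.7 ± 0.577 of the 18 enhancers in the successive windows (SD, n = 3 each). From 1.5 h on zld- libraries listed 17, 17.3 ± 0.577 and 17 (SD, n = 3 each), and each cic6 library listed 18. Enhancers called lower in zld- mostly kept a listed peak. At oc_RVH a peak was listed in 11 of 12 zld- libraries, and the authors' fold enrichment there was 2.78, 2.44 and 2.09 in the second window, 2.82, 2.66 and 2.86 in the third window, and 2.69, 2.48 and 2.61 in the fourth window. At tll_(+2) a peak was listed in 9 of 12 zld- libraries, every one from 1.5 h on and none before. The fold enrichment of the peaks did not follow the lower calls at every member. At oc_RVH its median in the fourth window was 2.61 in zld- and 3.62 in OreR. At hkb_(-2) it was 4.08 in zld- and 3.21 in OreR in the fourth window, and at hb_(-2)_broad 3.82 and 3.17 in the third.

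The listing of kni_-5_construct set gd7 apart, although no test of it was made. It had a peak in 9 of 12 OreR libraries, 10 of 12 zld- libraries, 6 of 6 cic6 libraries and 1 of 12 gd7 libraries. From 1.5 h on it was listed in 9 of 9 OreR libraries and in 1 of 9 gd7 libraries, the latter in the fourth window. In the first window it was listed in 0 of 3 libraries in OreR and in gd7 alike. As the tested regions were placed at OreR peaks, the OreR side is favoured. The share of all regions with such a listing was not computed. The authors' fold enrichment of that gd7 peak was 1.75, at percentile 15.3 of its list. At oc_otd_eye_enhancer, which had the lowest mean count of the 18 in the zld- and gd7 tables, a peak was listed in 8 of 12 OreR, 8 of 12 gd7, 2 of 12 zld- and 6 of 6 cic6 libraries. Its log2 fold change in zld- was not called in any window of the authors' deposited table, and with the trend removed it was called lower in the first (-0.45, adjusted p 0.0286). At the remaining 16 enhancers a peak was listed in 10 to 12 of the 12 OreR libraries, in 10 to 12 of the gd7 libraries and in 9 to 12 of the zld- libraries.

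**Figure D5:**
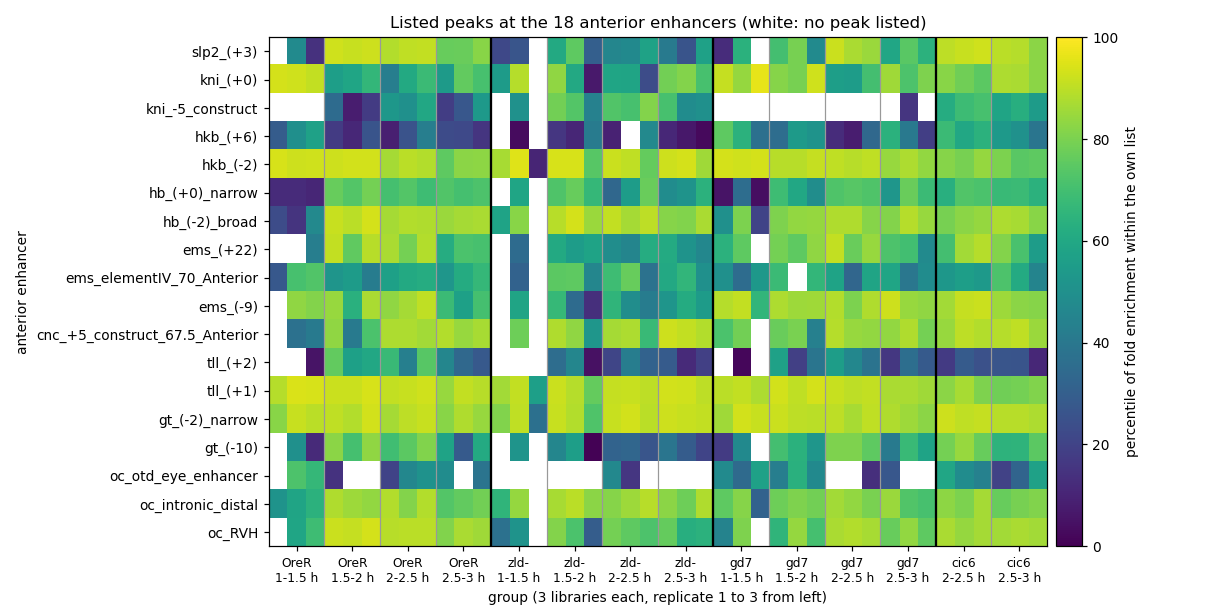
Peaks listed at the 18 anterior enhancers in each of the 42 libraries, in columns by group and replicate. Colour gives the percentile of the strongest overlapping peak's fold enrichment (the authors') within that library's own list, and white cells have no listed peak. Peaks are missing mostly in the first window, at kni_-5_construct in gd7 (1 of 12 libraries) and at oc_otd_eye_enhancer in zld- (2 of 12).

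The enhancers with a dorsoventral pattern in the same annotation were counted for comparison, beside the shares of all regions given above. In gd7 the authors' deposited table called 7, 1, 1 and 5 of 37 ventral enhancers lower in the 4 windows and 0, 3, 0 and 0 higher. Of 21 neuroectoderm enhancers the authors' deposited table called 0, 3, 3 and 4 lower and none higher in gd7. Of 19 dorsal enhancers it called 4, 7, 2 and 3 higher and none lower, against 4.47%, 7.86%, 2.09% and 3.81% of all regions called higher in the authors' deposited table. With the trend on mean count removed, the second gd7 window held 1 higher and 1 lower call among the dorsal enhancers and no higher and 4 lower calls among the ventral ones, and 6 lower calls among the neuroectoderm ones, against 6.08% lower and 4.96% higher of all regions, from the authors' deposited table.

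In zld- the authors' deposited table called 24, 13, 17 and 23 ventral, 10, 12, 15 and 16 neuroectoderm and 11, 13, 13 and 15 dorsal enhancers lower, against 15.6%, 7.49%, 13.4% and 17.1% of all regions. In the first window, the one with uneven libraries, these are 64.9%, 47.6% and 57.9% of the 3 classes, and 22.2% of the anterior enhancers, in the authors' deposited table. With the trend removed these shares were 51.4%, 28.6% and 52.6%, and again 22.2% of the anterior enhancers, against 13.2% of all regions, from the authors' deposited table. In cic6 the authors' deposited table called 32 and 13 ventral, 17 and 2 neuroectoderm and 17 and 9 dorsal enhancers higher, against 26.2% and 14% of all regions. With the trend removed, 4 and 2 ventral, 1 and 1 neuroectoderm and 5 and 3 dorsal enhancers were called higher, against 13.7% and 11.8% of all regions, from the authors' deposited table. No test of a difference between pattern classes was made.

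Other regions near segmentation genes were counted as well, 211 regions within 10 kb of 38 genes that are not among the 18 enhancers. These were 19 at maternal and terminal genes, 19 at gap, 25 at head gap, 38 at pair-rule, 24 at segment polarity and 89 at Hox genes. A region can lie near more than 1 gene. The maternal and terminal class held bcd, nos, tor, tsl and cad, while tailless and huckebein were counted in the gap class. In zld- the authors' deposited table called 54, 32, 52 and 57 of the 211 lower, which is 25.6%, 15.2%, 24.6% and 27.0%, against 15.6%, 7.49%, 13.4% and 17.1% of all regions. The 38 regions at the 8 pair-rule genes, which draw the first stripes of the body plan, had 12, 11, 18 and 21 lower calls in zld- in the authors' deposited table. By class the others had 1, 4, 7 and 7 lower calls at maternal and terminal genes, 6, 2, 4 and 5 at gap genes, 10, 5, 5 and 4 at head gap genes, 5, 1, 2 and 3 at segment polarity genes and 21, 9, 16 and 18 at Hox genes in the authors' deposited table. Higher calls in zld- numbered 2, 2, 7 and 18 of the 211 in the authors' deposited table. These are 0.948%, 0.948%, 3.32% and 8.53%, against 10.4%, 4.66%, 7.82% and 14% of all regions.

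In gd7 the authors' deposited table called 3.32%, 0.474%, 0% and 0.948% of the 211 lower, against 4.01%, 7.47%, 3.45% and 8.19% of all regions. It called 1.42%, 10.9%, 0.948% and 2.37% of them higher, against 4.47%, 7.86%, 2.09% and 3.81% of all regions in the authors' deposited table. In cic6 the authors' deposited table called 49.8% and 18.5% of the 211 higher and 6.16% and 8.53% lower, against 26.2% and 14% of all regions higher and 22.8% and 13.7% lower. The 25 head gap regions had 17 and 11 higher calls in cic6 in the authors' deposited table. These shares near segmentation genes were not recomputed with the trend removed, and no test of a difference between gene classes was made.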

How the data were processed

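Whole embryos were collected over 30 min, aged, sorted by hand and treated with Tn5, per the labels' protocols. The submitters' processing notes name Bowtie2 2.3.5.1, Picard 2.23.8, MACS2 2.2.7.1, DESeq2 and build dm6, with no settings. Any shift of reads for Tn5 is not given in the sources used here. One kind of file is a peak list, which the authors deposited for each library, each peak with a score, a fold enrichment (a ratio), −log10 of its p-value and q-value, and a summit. The authors also deposited 1 table per mutant, holding per region and window the log2 fold change and its SE, the Wald statistic (a score), its p-value and the adjusted one, and a normalized count averaged over libraries (a signal). File names place the regions at OreR peaks. A Benjamini-Hochberg adjustment of each window's p-values differed from the deposited ones by at most 2.18e-07, and 7 regions per gd7 window without a p-value were left out. Each table's mean count is the same in every window.

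The 42 libraries fall into 14 groups of 3 by their titles. Nothing says that replicates came from separate cultures of flies, so their spread may be technical. Counts per library were not used here, so depth is unknown and no count model was fitted. Differences between windows or mutants used a two-sided Wald test on the deposited values. It was first run on simulated differences between the third and the fourth window, with normal errors of the deposited SEs. That simulation covers neither the uneven first window nor the OreR libraries shared between mutants, so it cannot show how the test holds there. Peaks were assigned by an overlap of at least 1 bp. Gene spans came from a RefSeq table of Release 6. All 18 enhancers are accounted for by name, and those of gap, terminal and head gap genes are given with values in each window, as are the 4 lowest and 4 highest called per mutant and the 3 of highest count. No enhancer was without a call in all 10 comparisons, while 77.9% of all regions had at least 1. The members and gene lists were chosen with earlier results of these data known. A motif search, which needs a genome, was not run. Python 3.11.15, numpy 2.4.6, pandas 2.3.3, scipy 1.17.1 and matplotlib 3.10.9 were used.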

Additional observations from a re-analysis of the deposited data

Results flagged for a closer look

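The effect of zld- differed between windows at 4 enhancers on each of 2 tests (Wald test on the log2 fold changes of the authors' deposited table, adjusted over all regions). From the first window (1 to 1.5 h) to the second the log2 fold change moved by -1.02 at tll_(+2) (adjusted p 0.00377), by -1.10 at oc_RVH (adjusted p 0.0103), by -0.61 at slp2_(+3) (adjusted p 0.0415) and by 0.54 at ems_elementIV_70_Anterior (adjusted p 0.00706). From the first window to the fourth it moved by -1.22 at oc_RVH (adjusted p 0.00245), by -0.63 at slp2_(+3) (adjusted p 0.0239), by -0.67 at cnc_+5_construct_67.5_Anterior (adjusted p 0.0253) and by 0.63 at ems_elementIV_70_Anterior (adjusted p 0.000573). All 8 differences involve the first window, whose zld- peak lists held 21324, 41668 and 6831 peaks. The part of the shortest library in them was not tested.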

How the results depend on the processing

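No paired analysis was possible because the authors' deposited tables hold no values per library. Leaving out each replicate in turn could be done only for the peak counts. With 3 libraries such a mean always stays within 1 SD of the full mean, so that measure cannot show stability. In the first window the mean numbers of enhancers with a peak ranged from 12 to 16 in OreR, 13.5 to 16.5 in gd7 and 5.5 to 12 in zld-.

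The counts of calls from the authors' deposited tables changed as follows. At an adjusted p under 0.01, 0 lower and 0 higher calls were left in gd7 in the second window. Centring on the median of all regions gave 1 higher call in zld- in the fourth window, 0 lower calls in gd7 in the second window, and 1 member higher in gd7 than in zld- in the first window. Removing the trend with mean normalized count gave 2 lower calls in gd7 in the second window (tll_(+2) and hb_(+0)_narrow, named after their values were seen, while kni_-5_construct lost its call), 5 and 4 higher calls in cic6, 8 members lower in the second and 5 in the fourth zld- window than in the first, and 1, 1 and 2 members higher in gd7 than in zld- in the first, the second and the fourth window. For these differences between windows and between mutants the share of all regions was not recomputed with centring or with the trend removed. Their counts are therefore no trait of the members. The cause was not tested. Of 180 single log2 fold changes, 8 lost their call at the stricter threshold, 1 lost and 7 gained one by centring, and 18 (14 of them in cic6) lost and 6 gained one without the trend. The other 4 lost calls were kni_(+0), tll_(+1) and hkb_(-2) in zld-, in the first, the third and the fourth window, and kni_-5_construct in gd7 in the second. No called value changed sign.

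With summits within 500 bp of the midpoint the mean numbers of enhancers with a peak, in order of window, were 13.7, 14.3 and 14.7 in OreR from 1.5 h, 10.7, 13.7, 12.7 and 14.3 in gd7, 13, 14 and 13.7 in zld- from 1.5 h, and 14.7 and 15 in cic6. With −log10 q of at least 5 they were 16.7 and 17.7 in OreR in the second and the third window, 11.3 in gd7 in the first window, and 14.7, 16.7 and 16.7 in zld- from 1.5 h. Unknown depth limits every statement on peaks that are not listed.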
